A study of Mus musculus with 2 samples.

Results

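Oligodendrocyte precursors of the mouse anterior hypothalamus were examined by single-nucleus RNA sequencing in 1 library from aged and 1 from young male mice. A barcode was taken as a nucleus when it held 500 or more unique molecular identifiers (UMIs, each standing for 1 captured RNA molecule), 500 or more genes and at most 5% of its UMIs from mitochondrial genes. It was taken as a precursor when Pdgfra, Cspg4 and Vcan together held 6 or more UMIs and Ptprz1 held 3 or more. Precursors also had at most 1 UMI of the fibroblast genes Dcn and Col1a2 and at most 15 UMIs of the neuronal genes Syt1 and Snhg11. A sum of Gpr17, Enpp6 and Bmp4 of 10 or more, which marks cells that are leaving the precursor state, kept a nucleus out. By these limits 385 of 19034 nuclei were precursors, 172 of 8597 in the aged and 213 of 10437 in the young library.

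Oligodendrocyte precursors are the dividing glia of the adult brain that give rise to myelinating oligodendrocytes. They depend on PDGF acting through the receptor that Pdgfra encodes, carry the proteoglycan NG2 encoded by Cspg4, and are kept in the lineage by the transcription factors Olig1, Olig2 and Sox10. They also receive synapses from neurons and carry receptors for glutamate and GABA. A precursor that commits to differentiation turns on Gpr17, Bcas1, Enpp6 and Tcf7l2 before the myelin genes.

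The aged library came from mice of 22 months and the young library from wild-type mice of 3 months, with the dissected region, which includes the preoptic area, pooled from 5 male mice for each. No treatment or transgene is given for either group, and the strain is not stated in the labels, nor is the genotype of the aged mice. Nuclei had passed a density gradient, removal of myelin with magnetic beads and sorting on DAPI before loading on a 10x Genomics chip. With 1 pooled library per age there is no replicate: age, pool, library and any difference in genotype cannot be told apart, no test between ages was possible, and each interval below is a 95% interval for counting error only.

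Over the whole series the libraries held 79107368 aged and 87520038 young UMIs, of which 57472005 and 69103229 were in nuclei. The median nucleus held 5699 aged and 5567 young UMIs. Barcodes of 100 or fewer UMIs, taken here as a sample of free RNA, held 2292650 aged and 1718429 young UMIs. From the neuron and microglia markers found in precursors, free RNA was estimated at 21.8% of the UMIs of aged and 22.4% of those of young precursors. The 2 marker sets went opposite ways: neuron markers alone gave 25.2% aged and 20.1% young, and microglia markers alone 11.9% and 30.045%. Of the 207 young microglia marker UMIs, 80 came from 2 nuclei, 1 of them marked as a doublet, and the estimates include both. Values with free RNA subtracted are therefore approximate. Of all nuclei, 25 barcodes occurred in both libraries, and none of them was a precursor in both.

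Precursors of the aged library together held 809186 UMIs and those of the young library 914234. A precursor nucleus had a median of 4511.5 UMIs in the aged library (2167 to 12660) and 4098 in the young library (1669 to 9735), and a median of 2308.5 and 2158 genes. After each nucleus was thinned to 2000 UMIs, which left out 4 young nuclei, the median was 1270.5 genes in aged and 1257 in young precursors. The 2 sets of nuclei thus overlapped in depth, with the aged set slightly deeper. Mitochondrial genes took 0.477% of aged and 0.372% of young precursor UMIs.

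**Figure D1:**
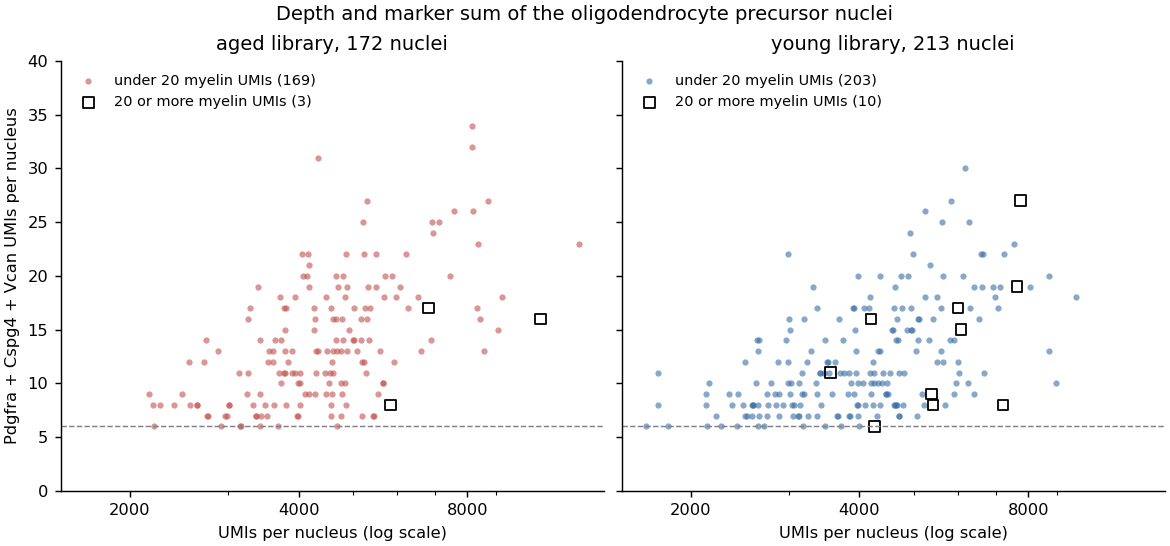
Each point is 1 precursor nucleus, with its UMIs on a log axis and its summed Pdgfra, Cspg4 and Vcan UMIs on the vertical axis, for the aged (172 nuclei) and the young library (213 nuclei). The dashed line marks the limit of 6 UMIs, and squares mark the 3 aged and 10 young nuclei with 20 or more UMIs of 5 myelin genes.

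The values that chose the nuclei are given as a description. The sum of Pdgfra, Cspg4 and Vcan ran from 6 to 34 UMIs with a median of 13 in aged precursors, and from 6 to 30 with a median of 11 in young ones. Ptprz1, a receptor phosphatase that binds matrix, had a median of 15 and 13 UMIs. Pdgfra itself had a UMI in 170 of 172 aged and 208 of 213 young precursors, at 1358 and 1373 CPM (UMIs of a gene per 1000000 UMIs of all precursors of that library). Just inside the marker limit, at 6 to 8 UMIs, stood 38 aged and 62 young nuclei, and just outside, at 3 to 5 UMIs with all other limits met, stood 13 and 28. The neuronal limit took out 19 of 191 aged and 17 of 235 young nuclei that had met the marker, Ptprz1 and fibroblast limits. Few nuclei lay close to it. Of precursors, 1 aged and 0 young had 10 to 15 UMIs of Syt1 and Snhg11. Of nuclei of either library that met the other limits, 0 had 16 to 25.

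Precursors took nearly the same share of nuclei at both ages. The aged share was 2.0% (exact binomial interval 1.72 to 2.32%) and the young share 2.04% (1.78 to 2.33%). Aged minus young came to -0.0401 percentage points (Newcombe interval -0.440 to 0.367). Among nuclei in the gates for precursors, oligodendrocytes, astrocytes and microglia, the precursor share was 7.31% in aged and 7.29% in young. Of precursors and oligodendrocytes together, precursors were 9.43% of aged and 10.2% of young nuclei, a difference of -0.752 points (-2.61 to 1.13). Each of these intervals includes 0. Shares of sorted nuclei also depend on how well each cell type survives isolation, which was not measured.

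Committed nuclei, which met every limit for a precursor except that Gpr17, Enpp6 and Bmp4 summed to 10 or more, numbered 0 among aged and 5 among young nuclei. The 5 nuclei had sums of 17, 20, 29, 30 and 38 UMIs, while the highest sum inside the precursor limit was 9 in either library. Their share of precursors plus committed nuclei was 0 of 172 in aged (exact binomial interval 0 to 2.12%, or up to 1.74% by a limit of 3 counts) and 2.29% in young (0.749 to 5.27%). The difference of -2.29 points had an interval of -5.26 to 0.254, so that a lower share in the aged library was not separated from counting error. When the precursor limits were dropped, a choice made after seeing the data, 4 aged and 15 young nuclei reached a sum of 10, or 2.27% and 6.58% of precursors and these nuclei together (difference -4.31 points, -8.53 to -0.0356). With the limit at a sum of 5 in place of 10, the counts were 10 and 12 and the difference was 0.309 points (-4.37 to 5.43).

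The 5 young committed nuclei differed from young precursors in many genes that did not select them. Bcas1, a marker of newly forming oligodendrocytes, stood at 5640 CPM (Poisson interval 4970 to 6375) against 438 in young precursors. Fyn, a kinase of the myelination program, stood at 3900 (3346 to 4518) against 260, and the scaffold gene Tns3 at 2203 (1793 to 2680) against 246. The myelin gene Mbp reached 1917 CPM against 116. These nuclei held 1 UMI of Pdgfra and 3 of Olig1, and Enpp6, part of the rule, had 48 UMIs in them against 2 in all aged and 10 in all young precursors. Their 45387 UMIs in all came from 5 nuclei of 1 library.

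Genes outside the rule matched the label. All 13 listed precursor markers that the rule did not use were detected in both libraries, and they summed to 16402 CPM in aged and 16893 in young precursors against 887 and 1192 in free RNA. Lhfpl3 and Tnr had a UMI in every precursor of both libraries. Other cell types left little RNA that could be told from free RNA. Markers of neurons outside the rule summed to 622 aged and 522 young CPM, below the 2464 and 2592 of free RNA. Markers of oligodendrocytes summed to 875 and 1028, against 2538 and 2499 in free RNA and 24448 and 24873 in oligodendrocytes. The astrocyte list summed to 4695 and 4215, above free RNA (644 and 806), mostly through Gpc5 and Slc1a2, while Aqp4 had 10 and 9 UMIs, Gja1 4 and 1, and Gfap 0 in the aged library. Of fibroblast, endothelial, mural and ependymal markers no list exceeded 8 UMIs in a library.

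Microglia markers differed between the libraries, at 82 aged and 207 young UMIs (101 and 226 CPM, below the 853 and 754 of free RNA). In the young library 2 precursors with 10 or more such UMIs held 80 of the 207, and without them the young level was 141 CPM. The highest aged nucleus held 3.

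A small set of genes separated precursors from the other classes at both ages. Among 3548 genes at 50 or more CPM in precursors of both libraries, 182 stood at least 2 times above the highest of neurons, oligodendrocytes, astrocytes and microglia in both libraries, 64 at least 4 times and 18 at least 10 times. Apart from genes of the rule the list was led by Susd5, at 184 aged and 168 young CPM against 8.91 and 8.19 in astrocytes, the next class. Ppfibp1, which encodes a liprin of cell contacts, followed at 398 and 432, then Inava at 71.7 and 84.2 and Snx22, a sorting nexin, at 116 and 70.0. Further down came the signalling adaptor Shc4 (268 and 234), the guidance ligand Sema3d (386 and 395), the synapse organizer C1ql1 (274 and 269) and the zinc finger factor Myt1 (346 and 373). Gucy2f, a guanylate cyclase best known from the retina, had 104 and 85.3 CPM against 8.91 and 7.37 in astrocytes. Megf11, the sialidase Neu4, the sulfotransferase Chst5 and Emid1 were also among the 20.

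Since the classes were gated on expression, these levels are a description without a test. Astrocytes were most often the next class. The aged astrocyte gate, with 163 nuclei, had more Pdgfra than the young one, with 390 nuclei (57.0 against 23.7 CPM). That gate used Gpc5, which precursors also held at 3296 aged and 2948 young CPM. It took nuclei with under 6 UMIs of Pdgfra, Cspg4 and Vcan, and whether it held precursors of low marker sum was not tested. Of the 20 leading genes only Snx22 lay more than 1.5 times apart between ages (94 and 64 UMIs, 1.66-fold higher in aged, interval 1.20 to 2.32). Snx22 overlaps the abundant gene Ppib on the opposite strand, and no source read here states whether counting used the strand.

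**Figure D2:**
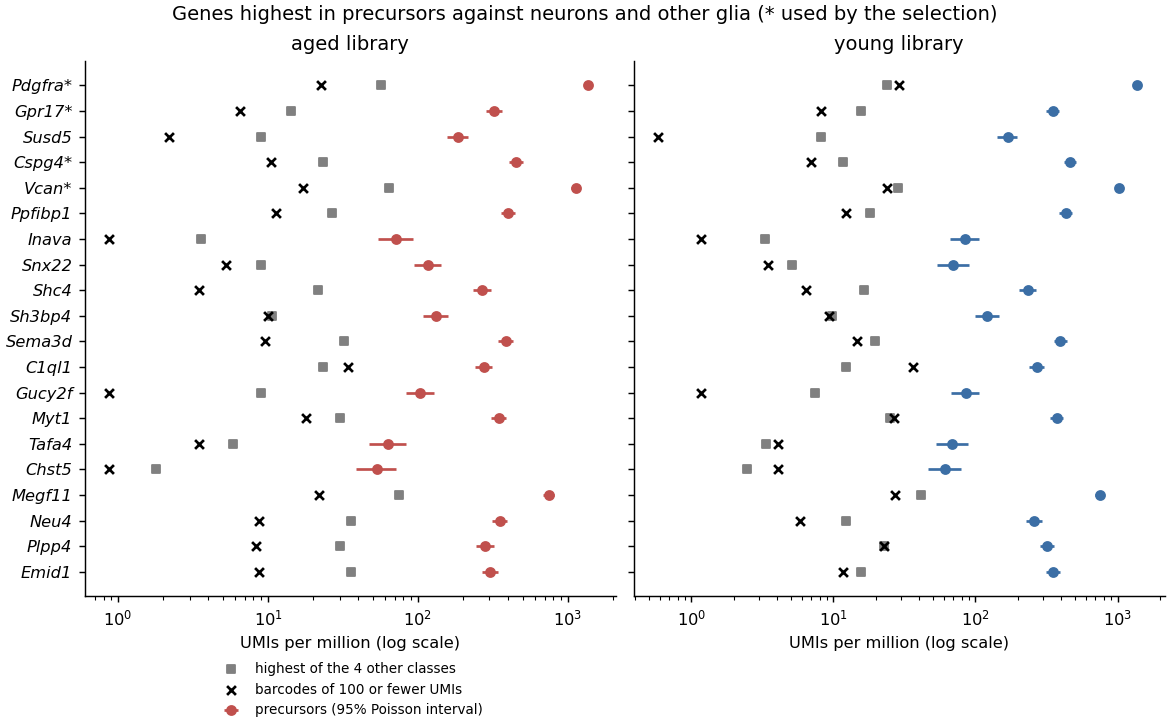
CPM, on a log axis, of the 20 genes with the highest ratio of precursors to the highest of neurons, oligodendrocytes, astrocytes and microglia, in the aged and the young library. Circles are precursors with Poisson intervals, squares the highest other class and crosses barcodes of 100 or fewer UMIs; asterisks mark genes that the selection used, and Susd5 leads the others at 184 and 168.

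Between ages most precursor genes lay close together. Of 6177 genes with 50 or more UMIs over the precursors of both libraries, 728 differed by 1.5-fold or more in CPM (11.8%), 404 of them higher (6.54%) and 324 lower (5.25%) in the aged library. The share fell with depth: it was 18.6% of genes with 50 to 100 UMIs, 7.10% of those with 100 to 400 and 2.16% of those with 400 or more, and counting error is widest for rare genes. Of all 6177 genes 3311 were higher (53.6%) and 2866 lower in the aged library, with a median log2 ratio of 0.03. Gene lists below are read against these shares, and log2 values were taken after adding 5 CPM.

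**Figure D3:**
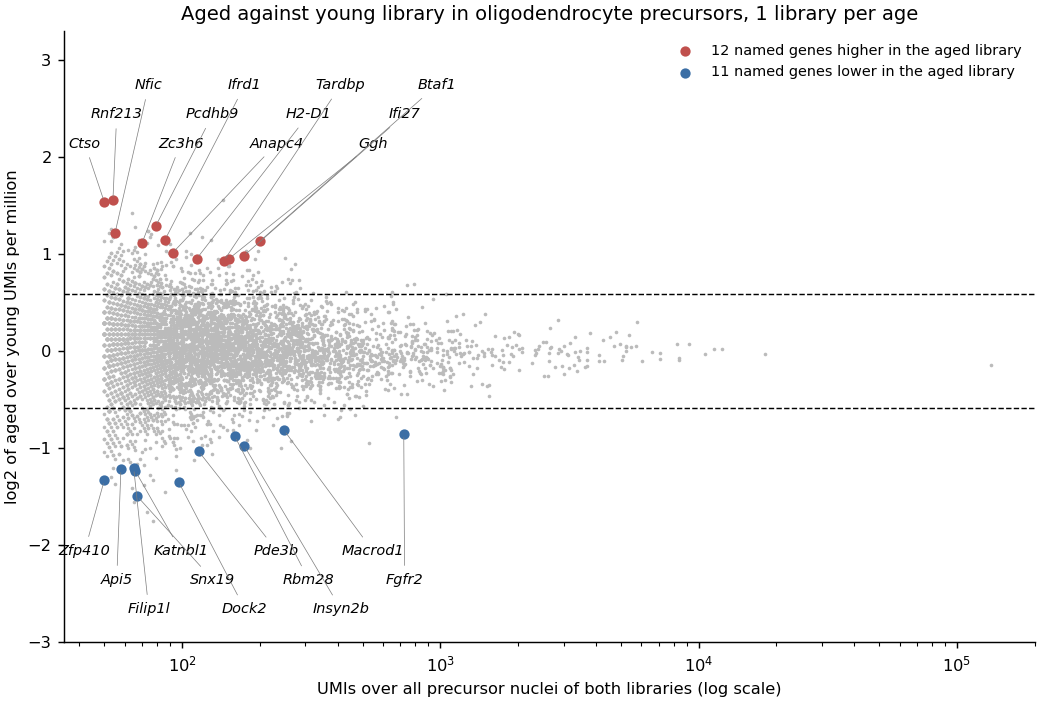
Each point is 1 of 6177 genes, with its UMIs over all precursors on a log axis and the log2 of the aged over the young CPM on the vertical axis. Dashed lines mark 1.5-fold, the named genes are labelled, and the cloud narrows to within the lines for nearly all genes above 400 UMIs.

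The genes that keep precursors in their lineage were measured deeply and differed little. Of 27 identity genes outside the rule with enough UMIs, 8 were higher and 19 lower in the aged library, with a median log2 ratio of -0.05, and 1 passed 1.5-fold, the signalling adaptor Traf4 (90 aged and 66 young UMIs, 1.54-fold higher, interval 1.11 to 2.15). Olig1 held 341 aged and 311 young UMIs (421 and 340 CPM, ratio 1.24, interval 1.06 to 1.45), and Olig2 held 191 and 168 (236 and 184 CPM, ratio 1.28, 1.04 to 1.59). Their partner Sox10 lay the other way, at 408 and 473 CPM (ratio 0.863, 0.746 to 0.998). Sox6 (ratio 1.01), Megf11 (0.993), Luzp2 (0.996) and Opcml (0.993) lay close to 1. Neu4 was 1.35-fold higher (1.13 to 1.61) and Cspg5, a brain proteoglycan, 1.25-fold higher (1.16 to 1.34), while Cacng4, an auxiliary subunit of AMPA receptors, was 1.24-fold lower.

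Olig2 was also found in more aged nuclei. At 2000 UMIs per nucleus 39.0% of aged (31.6 to 46.7%) and 27.3% of young precursors (21.4 to 33.8%) had a UMI of Olig2, against 0.4% of neurons in either library, and without thinning in 66.3% and 49.8%. For Olig1 the thinned shares were 53.5% and 46.4%, for Neu4 45.9% and 39.7%. The intervals of the 2 ages overlapped for each of these genes, narrowly for Olig2. Free RNA lay the same way for Olig1, at 87.2 aged and 61.1 young CPM, as it did for Olig2 at 26.6 and 22.1.

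Genes of PDGF signalling beyond the receptor were near the depth limit. Pdgfd held 25 aged and 30 young UMIs (ratio 0.942), Pdgfc 17 and 21 and Pdgfa 21 and 11 (ratio 2.16, interval 0.994 to 4.95). Among 9 genes that hold back differentiation, 5 were higher, 4 lower and 0 passed 1.5-fold, with a median of 0.02. They included the Notch target Hes5 (137 and 127 UMIs, ratio 1.22, 0.95 to 1.56), Sox5 (966 and 1101, 0.991), Notch1 (70 and 93, 0.850) and Gpr37l1, an orphan receptor, which at 308 and 256 UMIs was 1.36-fold higher (1.15 to 1.61).

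Among 17 commitment and differentiation genes outside the rule, 8 were higher and 9 lower in the aged library, with a median of -0.01. Tcf7l2, a Wnt pathway factor that marks the step to differentiation, held 108 aged and 176 young UMIs and was 1.44-fold lower (ratio 0.693, interval 0.540 to 0.886). Free RNA of Tcf7l2 lay the same way, at 30.5 aged and 43.6 young CPM. So did oligodendrocytes (85.7 and 107), astrocytes (437 and 531) and microglia (221 and 303), but not neurons (40.9 and 36.1). In thinned precursors the shares with a UMI of Tcf7l2 overlapped, at 23.8% (17.7 to 30.9%) and 29.7% (23.6 to 36.4%). The deacetylase gene Sirt2, with 69 and 114 UMIs, had a ratio of 0.684 (0.500 to 0.930), and Zfp536 with 182 and 266 one of 0.773 (0.637 to 0.937). Bcas1 lay the other way, with 411 and 400 UMIs and a ratio of 1.16 (1.01 to 1.34), as did Itpr2 at 1.12. The only member past 1.5-fold was St18 (41 and 89 UMIs), and 34 of its aged and 77 of its young UMIs came from the few nuclei with 20 or more myelin UMIs.

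Gpr17, used by the rule only as an upper limit, had a UMI in 66.9% of aged and 73.7% of young precursors, and after thinning in 47.1% (39.5 to 54.8%) and 53.6% (46.6 to 60.5%). It was nearly absent from neurons at the same depth, at 0% and 0.4%. The median precursor of either library held 1 UMI of Gpr17, and its 260 aged and 320 young UMIs gave 321 and 350 CPM. The upper limit in the rule caps these levels.

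Precursors carried a broad set of glutamate receptor genes at both ages. Of 21 measured AMPA, kainate, NMDA and metabotropic genes and their auxiliary subunits, 7 were higher and 14 lower in the aged library, with a median of -0.11. By 1.5-fold or more 1 was higher and 2 lower, against 6.54% and 5.25% of all genes. The AMPA receptor genes Gria2 (983 and 1089 UMIs, ratio 1.02) and Gria3 (498 and 561, ratio 1.00) were level, and Gria4 was slightly lower (878 and 1134, ratio 0.875, 0.800 to 0.956). The AMPA receptor auxiliary subunit Cacng7, with 73 and 132 UMIs, was 1.60-fold lower (1.19 to 2.16). The other members past 1.5-fold were Gria1, with 37 aged and 82 young UMIs (ratio 0.510, 0.336 to 0.760), and the NMDA receptor gene Grin2b, with 37 and 21 (1.99, 1.14 to 3.58). Gria1 stood at 45.7 and 89.7 CPM against 396 and 588 in free RNA, and Grin2b at 45.7 and 22.97 against 416 and 569, so that no direction is read for either. The metabotropic receptor Grm5, with 1005 and 1013 UMIs, had a ratio of 1.12 (1.03 to 1.22) and Grm7, with 436 and 607, one of 0.812 (0.716 to 0.919). Neurons hold large amounts of Gria1 RNA, at 53917 aged and 69783 young UMIs, with a ratio of 0.928, and its share in the precursor value was not tested.

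Genes for GABA receptors leaned to the aged library by small amounts. Of 10 measured, 8 were higher and 2 lower with 0 past 1.5-fold, and the median log2 ratio was 0.20, or 0.43 after free RNA was subtracted. Gabrb1 had 246 and 231 UMIs (ratio 1.20, 1.00 to 1.45), Gabbr2 81 and 71 (1.29, 0.926 to 1.80), and Gabrg3 lay the other way at 242 and 322 (0.849, 0.716 to 1.01).

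Of 30 ion channel genes, 11 were higher and 19 lower, and 2 were lower by 1.5-fold or more, against 5.25% of all genes. Among the 2 was Kcna1, a voltage-gated potassium channel, at 27 and 46 UMIs (ratio 0.663, interval 0.396 to 1.09). Kcnd2, an A-type potassium channel, was level at 3311 and 3789 UMIs (ratio 0.987, 0.942 to 1.03). The inward rectifier Kcnj10 had a ratio of 0.722 (62 and 97 UMIs, 0.516 to 1.00) and the calcium channel gene Cacna1a one of 0.735 (277 and 426, 0.629 to 0.857), while Cacna2d1 (1.42) and Kcnq5 (1.38) were higher in aged.

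Matrix and adhesion genes, which make up much of the precursor surface, were evenly split. Of 16 matrix genes outside the rule 8 were higher and 8 lower, and of 36 synaptic and contact adhesion genes 18 were higher and 18 lower, with 0 past 1.5-fold in either list and medians of -0.0090 and -0.0045. Brevican (Bcan) had 452 and 418 UMIs and a ratio of 1.22 (1.07 to 1.40), and Gpc5, a heparan sulfate proteoglycan, 2667 and 2695 with a ratio of 1.12 (1.06 to 1.18). Lrrc4c, which encodes a netrin-G ligand, had 5819 and 6490 UMIs and a ratio of 1.01 (0.978 to 1.05). That narrow interval is for counting error only and does not bound differences between pools or libraries.

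Axon guidance genes held more low values. Of 21 measured, 8 were higher and 13 lower, and 4 were lower by 1.5-fold or more against 5.25% of all genes. The 4 were Sema4d (19 and 42 UMIs, ratio 0.511, interval 0.281 to 0.898), the plexin Plxnb3 (43 and 82, 0.592, 0.400 to 0.867), Slit2 (20 and 38, 0.595, 0.328 to 1.05) and Ephb2 (24 and 49, 0.553, 0.325 to 0.919). Plxnb3 had the most UMIs of the 4, and genes of this depth scatter widely. The deeper genes Dcc (1383 and 1760 UMIs, ratio 0.888), Robo1 (1002 and 1005, 1.13) and Unc5c (883 and 1033, 0.966) lay close to 1.

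Among 21 growth factor receptor genes, 12 were higher and 9 lower, with Fgfr2 alone past 1.5-fold. Erbb4 was at 2418 and 2388 UMIs with a ratio of 1.14 (1.08 to 1.21), Igf1r at 153 and 152 (1.14, 0.903 to 1.43) and Ntrk2 at 407 and 482 (0.954, 0.834 to 1.09). Nuclear hormone receptors had 3 higher and 7 lower of 10 and 0 past 1.5-fold, among them the thyroid hormone receptor gene Thrb (214 and 232 UMIs, 1.04). Wnt pathway genes had 3 higher and 9 lower of 12, including Znrf3 (64 and 104 UMIs, ratio 0.695, 0.501 to 0.958) and Lrp5, the only one past 1.5-fold (34 and 22, 1.75, 0.992 to 3.13). Heat shock genes had 6 higher and 10 lower of 16, with Hspa4l past 1.5-fold (25 and 54, ratio 0.523, 0.312 to 0.855), and cholesterol genes 6 higher and 5 lower of 11, with Cyp51 past it (16 and 38, 0.476, 0.248 to 0.874).

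**Figure D4:**
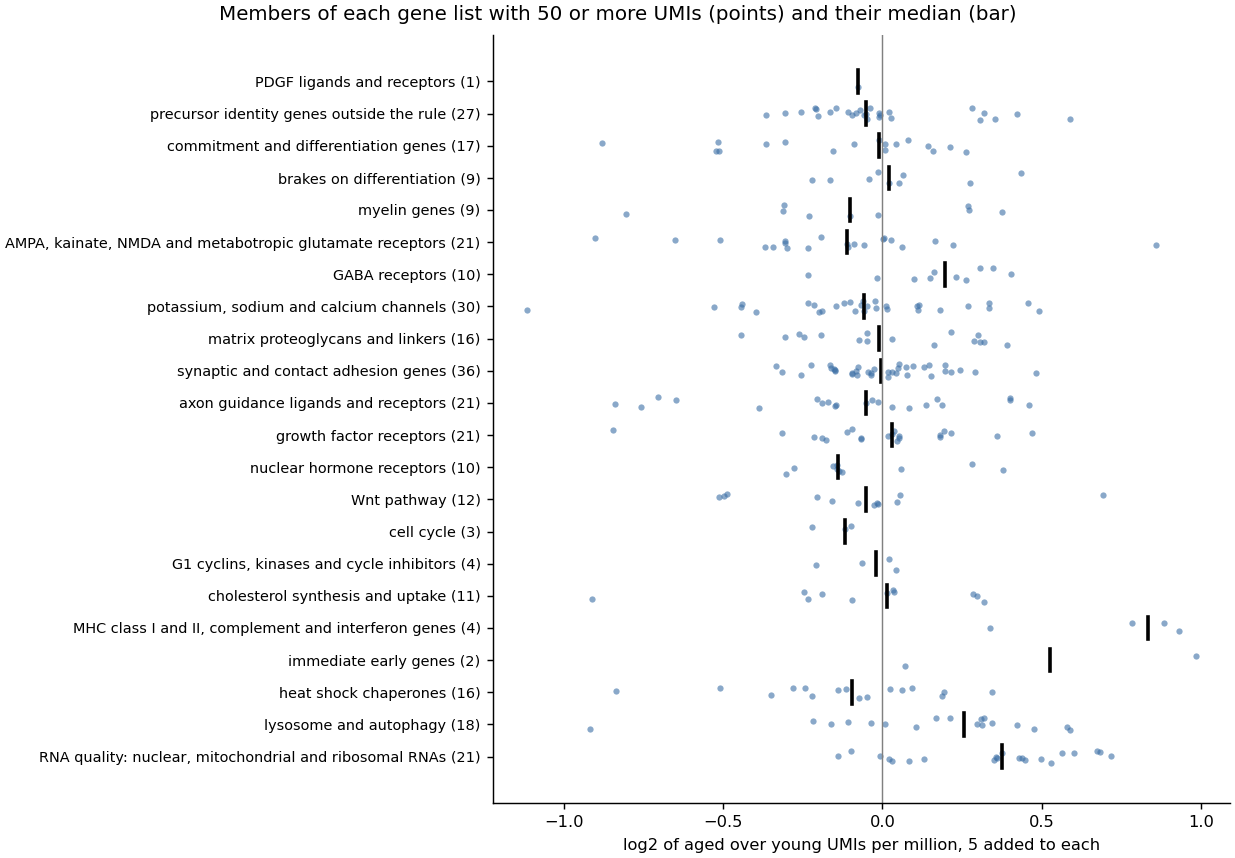
Each point is the log2 ratio of aged over young CPM (5 added to each) of 1 gene with 50 or more UMIs, by gene list with the number of genes in brackets, and the bar is the list's median. The MHC, complement and interferon list (median 0.83 over 4 genes) and the RNA quality list (0.38 over 21) lie farthest to the right among lists of more than 2 genes.

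The genes of antigen presentation and interferon response were low but leaned to the aged library. Of 31 listed, 4 had enough UMIs, and all 4 were higher, with a median log2 ratio of 0.83. Of the 4, 3 were past 1.5-fold, against 6.54% of all genes. Ifi27, induced by interferon, had 110 aged and 63 young UMIs in 77 and 47 nuclei and was 1.97-fold higher (1.43 to 2.73). The MHC class I genes H2-D1 (72 and 42 UMIs, 1.94-fold, 1.31 to 2.91) and H2-K1 (44 and 27, 1.84-fold, 1.12 to 3.09) followed. Below 50 UMIs, Irf9 had 21 and 7, B2m 18 and 16 and Tap2 20 and 20. H2-D1 and H2-K1 belong to a family of close copies between which reads can be split, so that the value of either is uncertain.

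Free RNA moved with 2 of these genes, at 90.3 aged and 49.5 young CPM for Ifi27 and 65.9 and 37.8 for H2-D1, below their precursor levels of 136 and 68.9 and of 89.0 and 45.9. After subtraction of free RNA the log2 ratios were 0.94 for Ifi27 and 0.90 for H2-D1, against 0.93 and 0.88 before. In nuclei thinned to 2000 UMIs, 23.8% of aged and 14.8% of young precursors had a UMI of Ifi27, against 2% and 1.8% of neurons, and H2-D1 in 14.0% and 9.09%, against 50.4% and 25.4% of microglia. Of H2-D1 the ratio was higher in oligodendrocytes (3.54, 2.50 to 5.10) than in precursors, and the ratio of the 2 ratios was 0.547 (Wald interval 0.328 to 0.913, counting error only).

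C4b, which encodes complement component 4, was found almost only in the aged library. It had 24 UMIs in 17 of 172 aged precursors and 1 UMI in 1 of 213 young ones, a ratio of 27.1 whose interval runs from 4.42 to 1115. One aged nucleus held 7 of the UMIs, and 7 came from the nuclei with 20 or more myelin UMIs, without which 17 remained. In oligodendrocytes the counts were 924 and 32, a ratio of 31.4 (22.1 to 46.1). Free RNA of C4b stood at 47.5 aged and 5.82 young CPM, above the 29.7 and 1.09 of precursors, and its part in the counts was not tested.

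Lysosome and autophagy genes leaned the same way by less: 13 of 18 were higher and 5 lower, with a median of 0.25. By 1.5-fold or more 2 were higher and 1 lower, against 6.54% and 5.25% of all genes. Psap, the precursor of the saposins, had 254 and 205 UMIs (ratio 1.40, 1.16 to 1.69), the protease gene Ctsb 92 and 68 (1.53, 1.11 to 2.12) and Gabarap 42 and 30 (1.58, 0.967 to 2.62). All 3 lay below free RNA, Gabarap at 51.9 and 32.8 CPM against 289 and 212. With free RNA subtracted the list's median fell to 0.05. Apoe, the lipid carrier, gave UMIs in 172 of 172 aged precursors and 212 of 213 young ones, at 3710 and 3021 CPM (ratio 1.23, 1.17 to 1.29), against 1529 and 1242 in free RNA.

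RNA quality genes also differed between the libraries in the same nuclei. Of 21 mitochondrial, ribosomal and other listed transcripts, 18 were higher and 3 lower in the aged library, with a median of 0.38. The mitochondrial gene mt-Co1 had 466 and 326 UMIs (ratio 1.61, 1.40 to 1.87) and Rpl3, of the ribosome, 154 and 104 (1.67, 1.30 to 2.17), while the nuclear RNA Malat1 was lower (ratio 0.908, 0.899 to 0.918). After free RNA was subtracted the median was 0.01. The lysosome and the MHC, complement and interferon lists also leaned to the aged library, and after the same subtraction their medians were 0.05 and 0.84. Any part of RNA quality in the lists above was not tested.

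By size against counting error, 12 genes were chosen in each direction. Btaf1, an ATPase that takes the TATA-binding protein off DNA, led the higher ones with 132 aged and 68 young UMIs in 88 and 62 nuclei, or 163 and 74.4 CPM (2.19-fold, 1.62 to 2.98). The ubiquitin ligase gene Rnf213 had 39 and 15 UMIs (2.94-fold, 1.58 to 5.74), of which 1 aged nucleus held 9. The cysteine protease gene Ctso had 36 and 14 (2.91-fold, 1.53 to 5.83) and the protocadherin Pcdhb9, from a cluster of close copies, 54 and 25 (2.44-fold, 1.49 to 4.09). Besides Ifi27 and H2-D1 the others were Ifrd1 (57 and 29, 2.22-fold), the folate enzyme gene Ggh (96 and 56, 1.94-fold), the RNA-binding protein gene Tardbp (91 and 54, 1.90-fold), the ubiquitin ligase subunit Anapc4 (59 and 33, 2.02-fold), Zc3h6 (46 and 24, 2.17-fold) and the transcription factor Nfic (37 and 18, 2.32-fold).

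The lower genes were led by Dock2, an activator of the GTPase Rac, with 25 aged and 72 young UMIs in 22 and 55 nuclei, or 30.9 and 78.8 CPM (2.55-fold lower, 1.60 to 4.19). Insyn2b, which lies on the opposite strand within the same stretch, also differed (54 and 120 UMIs, 1.97-fold lower, 1.42 to 2.76), so that reads of the pair may not be separable. Snx19, a sorting nexin, had 16 and 51 UMIs (2.82-fold lower, 1.58 to 5.30). Fgfr2, a fibroblast growth factor receptor and the most deeply measured of the 12, had 237 and 485 UMIs in 124 and 186 nuclei (1.81-fold lower, 1.55 to 2.12). Its gene model in GENCODE M21 overlaps several others, among them Ate1 on the same strand, and free RNA moved with it at 280 and 439 CPM against 293 and 530 in precursors. Others were the phosphodiesterase Pde3b (35 and 81 UMIs, 2.05-fold), Katnbl1 (18 and 48, 2.36-fold), Macrod1 (83 and 165, 1.76-fold), Filip1l (18 and 47, 2.31-fold), the zinc finger gene Zfp410 (13 and 37, 2.52-fold), Rbm28 (52 and 108, 1.84-fold) and Api5 (16 and 42, 2.32-fold). Several named genes reached the level of free RNA only in the library where they were high. Snx19, Katnbl1, Filip1l, Zfp410 and Api5 lay below it in the aged library, and Ifrd1, Tardbp, Anapc4, Zc3h6 and Nfic in the young.

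Dock2 is also a gene of microglia, where it had a UMI in 78.5% of aged and 89.5% of young nuclei at 2000 UMIs. In precursors the thinned shares were 4.65% (2.03 to 8.96%) and 15.8% (11.1 to 21.5%), against 5% and 6.4% of neurons, so that the aged share was at the neuron level and the young share above it. Without the 2 young precursors rich in microglia markers Dock2 was 2.52-fold lower (1.58 to 4.15) and Pde3b 1.85-fold lower (1.22 to 2.86).

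Other classes of the same 2 libraries show which of these differences were shared. Btaf1 was higher in the aged library in each class, at 1.74-fold in oligodendrocytes, 1.69-fold in astrocytes, 1.94-fold in microglia and 1.64-fold in neurons, and none of the 4 ratios of precursors to another class had an interval that left out 1. Rbm28 was lower in each class, with ratios of 0.762 in oligodendrocytes, 0.585 in astrocytes, 0.670 in microglia and 0.700 in neurons against 0.544 in precursors. Free RNA lay the same way for both genes. It stood at 89.9 aged and 57.0 young CPM for Btaf1, against 163 and 74.4 in precursors. For Rbm28 it stood at 43.6 and 67.5, against 64.3 and 118, and the part of free RNA was not tested. For Snx19 the ratio was 0.354 in precursors and 1.29, 1.20, 1.49 and 1.20 in oligodendrocytes, astrocytes, microglia and neurons. The ratio of the precursor ratio to that of neurons was 0.295 for Snx19 (0.168 to 0.519) and 0.275 to that of oligodendrocytes (0.148 to 0.510). Zfp410 had a ratio of 0.397 in precursors against 0.914 to 1.25 in the other classes. Free RNA stood at 28.8 aged and 29.1 young CPM for Snx19, against 19.8 and 55.8 in precursors, and at 23.1 and 25.6 for Zfp410, against 16.1 and 40.5. Both genes were named for their ratio in precursors and passed the limit of free RNA only through the young library, so that these ratios of ratios are a description.

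Among the higher genes, Ifrd1 had ratios of 0.923 in oligodendrocytes, 0.970 in astrocytes, 1.32 in microglia and 1.02 in neurons against 2.22 in precursors, and Anapc4 1.08, 0.933, 0.991 and 1.06 against 2.02. For Anapc4 and Nfic the ratio of ratios to all 4 classes had an interval above 1. In young precursors Anapc4 stood at 36.1 CPM against 44.2 in free RNA, Nfic at 19.7 against 32.0 and Ifrd1 at 31.7 against 38.4. These genes passed the limit of free RNA only through the aged library, so that their ratios of ratios are a description. Such differences between classes were picked from genes named for their ratio in precursors and rest on 1 library per age.

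**Figure D5:**
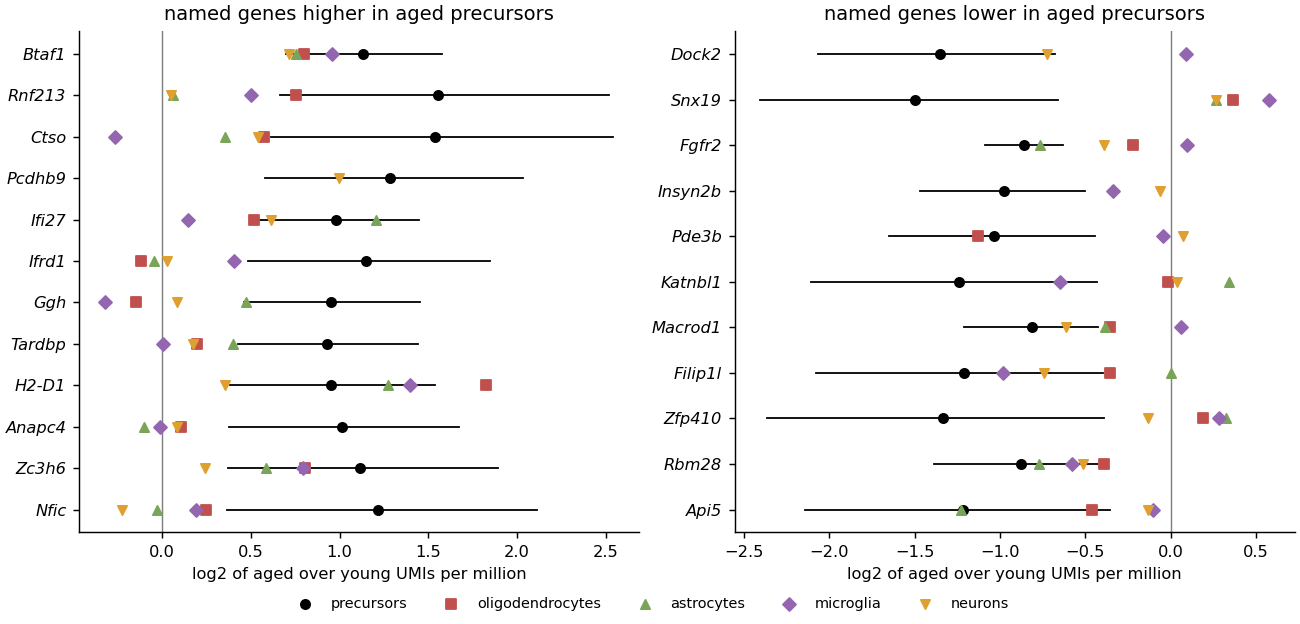
The log2 ratio of aged over young CPM for the named genes in each direction, in precursors (black circles with counting intervals) and in 4 other classes; a class with under 20 UMIs of a gene is left out. Btaf1 lies to the right of 0 in all 5 classes, and Snx19 lies to the left in precursors and to the right in the other 4.

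Dividing precursors were rare at both ages. The 37 cell cycle genes summed to 319 aged and 365 young UMIs with a median of 1 per nucleus, and 2 nuclei in each library held 15 or more. In the aged library these held 58 and 24 such UMIs and in the young library 54 and 31, while the next nuclei held 11 and 7. The leading nucleus of each library was rich in genes of cell division (35 of 58 UMIs in aged and 38 of 54 in young), with 4 UMIs of Mki67 and 10 and 9 of Top2a. The second nucleus of each library had more replication genes (10 and 17 UMIs) than division genes (4 and 1). None of the 4 was marked as a doublet, and each carried Pdgfra (20, 5, 8 and 6 UMIs). Cell cycle genes with 50 or more UMIs numbered 3, all lower in aged and within 1.5-fold, and the G1 cyclin gene Ccnd1 was level at 54 and 60 UMIs (ratio 1.02, 0.691 to 1.49). The inhibitors Cdkn1a and Cdkn2a, often read in aged tissue, held 7 and 3 aged against 2 and 1 young UMIs, too few for a comparison.

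For most genes, variation between thinned nuclei of 1 library was close to what counting gives. At 2000 UMIs per nucleus the variance divided by the mean had a median of 1.04 in both libraries over 5985 genes with a mean of 0.05 or more. Of these, 55 genes reached 1.5 in both. For genes of low mean this measure lies near 1 by counting alone, so that it says little of their spread. Malat1 led at 11.6 aged and 12.4 young. Among genes abundant in precursors, Nxph1, a ligand of neurexins, had 2.47 and 2.17, Lhfpl3 2.03 and 2.16, Gpc5 2.05 and 2.15 and the adhesion-linked gene Sgcz 2.16 and 2.0. Apoe varied more in the aged library (3.95) than in the young (2.41), and single aged nuclei held up to 58 of its UMIs against 35 in young ones. Nrg1, a ligand of ErbB receptors, had a ratio of variance to mean of 2.12 and 2.13. It was found in 27.9% of aged and 32.1% of young thinned nuclei, and without thinning in 79 of 172 and 100 of 213. Its level of 188 and 287 CPM lay below the 687 and 999 of free RNA, whose part was not tested.

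Of the 12 most variable genes 4 were those of mature oligodendrocytes, among them Nkain2 (10.7 and 8.66), St18 (2.95 and 3.54) and Slc24a2 (2.80 and 4.17). A few nuclei carried them. In the aged library 3 and in the young library 10 precursors held 20 or more UMIs of 5 myelin genes, Mbp, Mog, Mag and Mobp among them, up to 140 and 52 in a nucleus, where the median precursor held 2 and 1. Those nuclei held 70.0% of the aged and 84.4% of the young Nkain2 UMIs and 82.9% and 86.5% of those of St18. Scrublet, a doublet caller, marked 2 of the 3 and 9 of the 10. Without them, a choice made after seeing the data, the variance over mean of St18 was 0.982 and 1.31 and that of Nkain2 1.49 and 1.76, while Nxph1 stayed at 2.15 and 2.34.

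The myelin list depended on these same nuclei. Over all precursors 3 of 9 myelin genes were higher and 6 lower in aged with a median of -0.10, and Mog alone passed 1.5-fold (17 and 37 UMIs, ratio 0.519, 0.274 to 0.945). Without the nuclei of 20 or more myelin UMIs Mog held 7 and 7 UMIs and the list's median was 0.20. Mbp then stood at 59.8 aged and 51.4 young CPM, below the 360 and 336 of free RNA, so that no direction is read for myelin genes in precursors.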

How the data were processed

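The authors deposited an unfiltered matrix of UMI counts per gene and barcode for each of the 2 libraries, with no normalisation; per the file headers the writer was Cell Ranger 4. No source read here states the genome build, the annotation, the use of strand or the treatment of intronic reads. From these counts, nuclei were selected by the limits given in the report, UMIs were summed over the precursors of each library and divided by their total, and no gene was filtered beyond a minimum of 50 UMIs for ratios.

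Precursors held 809186 aged and 914234 young UMIs, so a gene with 50 UMIs in all has a wide interval. Counts carry exact Poisson intervals, shares exact Clopper-Pearson intervals, differences of shares Newcombe intervals and ratios exact conditional binomial intervals, all at 95% and for counting error only. A ratio of 2 ratios carries a Wald interval on the log scale. No test was run, because each age has 1 library. Other classes were gated on their own genes: neurons on Syt1 and Snhg11 (over 15 UMIs), oligodendrocytes on Mobp, Mag, Mog and Prr5l (6 or more), astrocytes on Gpc5, Aqp4 and Gja1 (6 or more) and microglia on Csf1r, Cx3cr1 and Inpp5d (5 or more).

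Named genes had 50 or more UMIs, a UMI in 10 or more precursors and a level not below that of free RNA in the library with the higher value, and were the 12 in each direction whose interval lay farthest from a ratio of 1. Mitochondrial genes, provisional gene models and antisense transcripts were counted but not named. Some genes that met these rules or stand in the lists are counted but not reported here by name. Defining genes were the 20 with the highest ratio to the highest other class, variable genes the 12 with the highest variance over mean, each by the lower of the 2 libraries. The members, the gene lists and the markers were chosen with earlier results of these data known. Doublets were marked with Scrublet (scanpy 1.11.5) and kept. The ratio and thinning scripts were tested on simulated data (Python 3.11.15, numpy 2.4.6, scipy 1.17.1). GENCODE M21 served only to find overlapping genes. Of the listed genes, Tmem2 was not matched by symbol.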

Additional observations from a re-analysis of the deposited data

How the results depend on the processing

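No paired analysis was possible because each age has 1 library and the labels give no replicate numbers, and no library could be left out for the same reason. The difference in precursor share stayed between -0.191 points (nuclei thinned to 2000 UMIs before the limits) and 0.295 points (marker sum of 12 or more, 102 aged and 93 young nuclei, interval 0.00733 to 0.595) over 7 alternatives, and the last was the only interval without 0. The share of committed nuclei moved to 0.309 points with a sum of 5 or more. Genes past 1.5-fold numbered 1049 higher and 884 lower of 9873 with a minimum of 20 UMIs, and 29 and 24 of 1523 with a minimum of 200, by construction of the filter. With a marker sum of 12 or more, from fewer nuclei, 188 of 3942 tested genes were lower against 324 of 6177. In the same setting 306 were higher against 404, so that the counts depend on how many genes were tested. Under the other alternatives run the counts stayed within 1.5 times (288 to 420 higher, 268 to 376 lower), with 4490 to 6177 genes tested. Genes with a variance of 1.5 times the mean or more numbered 13 at 1000 UMIs per nucleus against 55 at 2000. The median of the myelin genes turned from -0.10 to 0.63 without Scrublet-marked nuclei and to 0.20 without those of 20 or more myelin UMIs, in each case on few UMIs. The 24 named genes kept their direction in all 264 recomputed values, the smallest being -0.42 for Macrod1. They were named for their ratio in these same counts and the alternatives reuse the same nuclei. Keeping the direction was thus largely set by the choice and is a description. Scaling by the median of ratios shifted all log2 ratios by 0.03. Depth limits most lists: of the 31 MHC, complement and interferon genes 4 could be counted. The alternatives without nuclei of 20 or more myelin UMIs, without the 2 young nuclei rich in microglia markers and without the precursor limits were chosen after seeing the data.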

Other observations

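Gene models with provisional names held the widest differences between the libraries in precursors. Gm21860 had 79 aged and 20 young UMIs, in 64 and 20 nuclei, 4.46-fold more CPM in aged (2.71 to 7.70). Its free RNA level was 18.3 aged and 6.40 young CPM. Lower in the aged library were 8030451O07Rik with 16 and 57 UMIs (3.15-fold, 1.79 to 5.88), Gm47423 with 15 and 50 (2.95-fold, 1.63 to 5.66) and Gm48321 with 25 and 72 (2.55-fold, 1.60 to 4.19). Gm47423 lies on the opposite strand of Ntrk2, which encodes a neurotrophin receptor, and Gm48321 on that of Thrb, a thyroid hormone receptor gene. Both partners were level in precursors, with ratios of 0.954 for Ntrk2 and 1.04 for Thrb.

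Below the minimum of 50 UMIs 2 listed receptor genes stood out, chosen here after their values were seen. Epha7, an ephrin receptor gene, had 20 aged and 4 young UMIs (5.65-fold higher, 1.89 to 22.7; free RNA 59.8 and 79.1 CPM against 24.7 and 4.38), and S1pr3, a receptor for sphingosine 1-phosphate, had 7 and 28 (ratio 0.282, 0.104 to 0.662). Of the precursors, 70 of 172 aged and 68 of 213 young nuclei held a UMI of the neuropeptide genes Avp or Oxt, which belong to neurons of this region.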
